A study of Homo sapiens with 20 samples.

Results

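HIF1A occupancy of chromatin in H460 cells was compared between hypoxia and normoxia. H460 is an established line from a large cell carcinoma of the lung. The deposited lists held 3877 peaks called in hypoxia and 1127 called in normoxia, of 26484 peaks in the 8 lists of the series, which covers 4 cancer lines. Peaks of both H460 lists were treated as one locus where they overlapped by at least 1 bp. This gave 4959 distinct loci, of which 3832 were called in hypoxia only, 45 in both conditions and 1082 in normoxia only.

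Cultures of H460 spent 24 h under normoxia or under hypoxia (1% oxygen), after which chromatin was immunoprecipitated with an antibody against HIF1A (NB100-134) in 2 replicates per condition. Both conditions were called against 1 H460 input library of genomic DNA, which the labels place in normoxia. One label field of that input names HCT116 as its source, whereas its title, description and cell line field name H460. No genetic change was made in either group. The authors merged the replicates before peak calling, so each condition is 1 list and no value below has a replicate error. Peak lists hold no expression values, and the lung identity of the cells could not be checked from them.

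HIF1A is the oxygen-regulated subunit of the HIF1 transcription factor. Prolyl hydroxylases mark it for destruction when oxygen is available, and in low oxygen it accumulates, pairs with ARNT and binds the hypoxia response element (HRE). The core of this element reads ACGTG or GCGTG. Textbook targets include the enzymes of glycolysis, the lactate exporter SLC16A3, the vascular growth factor VEGFA and the prolyl hydroxylases themselves.

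The strongest loci of each class are shown first by the sequence at their centre because the share of peaks with this core differed between the classes. Each line gives 29 bases of GRCh37 around the HRE core nearest the peak centre, 5′ to 3′ on the strand that carries it, with the core in capitals. The first 5 are the strongest loci called in hypoxia only: a UTR of NDUFA4L2 (chr12:57628952-57628980, minus strand), upstream of PPP1R3C (chr10:93393072-93393100, minus), the PDK1 UTR (chr2:173420789-173420817, minus), an exon of LINC00607 (chr2:216484972-216485000, minus) and an intron of PFKFB4 (chr3:48594704-48594732, plus).
NDUFA4L2, hypoxia only: gagtgccaagcgACGTGgcgggctccacg
PPP1R3C, hypoxia only: gctgcatgcggtACGTGcctgcccggccc
PDK1, hypoxia only: ggtacgtgagggACGTGgcgggcagcagg
LINC00607, hypoxia only: actccgtgcacaACGTGacagtcggggct
PFKFB4, hypoxia only: gggacgaggcctACGTGacccgcacggcc

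The next 4 are among the 5 strongest loci called in both conditions. They lie in a noncoding exon of SLC16A3 (chr17:80188985-80189013, minus), the ENO1 UTR (chr1:8939061-8939089, plus), an intron of FAM174B (chr15:93352410-93352438, plus) and upstream of DENND1A (chr9:126692545-126692573, minus).
SLC16A3, both: gggacgtgggggACGTGaccgcgccatgg
ENO1, both: tggcccggggcgGCGTGgcgggcatgaga
FAM174B, both: ggcggaacgcggACGTGctgcaggcaggg
DENND1A, both: gcgccctgggagACGTGcgggtgaccgcg

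Of the 5 strongest loci called in normoxia only, 1 held a core within 100 bp of its centre.

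The merged H460 libraries held 49.5 M (mega) tags in hypoxia and 53.3 M in normoxia, and the headers imply 29.3 to 29.4 M for the input. Signal is given as the Normalized Tag Count, the tags in a peak per 10 M tags of the library. Peaks were 147 bp wide in hypoxia and 119 bp in normoxia, and the lowest tag number accepted at the authors' false discovery rate was 17 and 16, although the values of some listed peaks correspond to 13. Intervals are 95% intervals. They cover counting error only, except that of the median ratio, which covers the spread between loci. Ratios compare 2 merged libraries, not the conditions.

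The 45 loci called in both conditions were 3.99% of the normoxia peaks (Wilson interval 2.997 to 5.30) and 1.16% of the hypoxia peaks (0.869 to 1.55). The hypoxia signal at loci called in hypoxia only had a median of 6.47 (middle range from 4.65 to 12.3) and a maximum of 179.3. At the loci called in both, the median was 15.2 in hypoxia and 3.57 in normoxia. Loci called in normoxia only had a median of 3 (2.81 to 3.38) and a maximum of 10.9. A signal of 50 or more was reached by 62 hypoxia-only loci and 13 loci of the shared class, and by 0 normoxia-only loci. The median tag number behind these values was 32 for hypoxia only, 75 for the hypoxia peaks of the shared class and 16 for normoxia only. Of the normoxia-only peaks, 96.5% had 20 or fewer tags, against 20.0% of the hypoxia-only peaks.

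**Figure D1:**
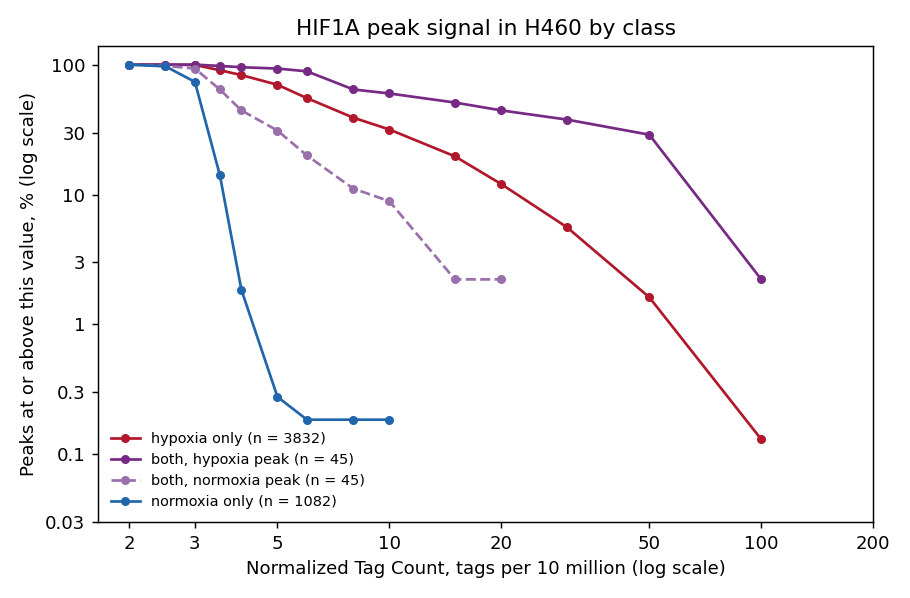
Share of peaks (vertical axis, percent, log scale) whose Normalized Tag Count reaches the value on the horizontal axis (tags per 10 M, log scale), for each class of H460 peak; the loci called in both conditions appear with their hypoxia and their normoxia peak. The normoxia-only curve falls below 1% before a signal of 5, and 31.7% of the hypoxia-only loci reach 10.

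Input coverage differed between the classes. No input tag was present at 45.6% of hypoxia-only peaks (44.02 to 47.2), at 44.4% of the hypoxia peaks of the shared class, and at 99.7% of the normoxia-only peaks (99.2 to 99.9). With a required fold of 14 over input and the library sizes above, a normoxia peak over 1 input tag needed 26 tags, and 98.2% of the normoxia peaks had fewer. In hypoxia 24 tags were needed, and 26.1% of the peaks had fewer. The input filter removed 89.8% of 11482 putative normoxia peaks and 81.3% of 21226 putative hypoxia peaks. A locus called in hypoxia only can thus have had normoxia tags that were too few for a call. Tags outside called peaks were not counted, so the classes describe calls, not the absence of binding. The part of input coverage in the choice of loci of any class was not tested.

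The 10 strongest hypoxia-only loci included loci in or near NDUFA4L2, PDK1 and PPP1R3C and the glycolytic genes PFKFB4 and ALDOA. The strongest, at 179.3 (887 tags, interval 167.7 to 191.6), lay in an annotated UTR of NDUFA4L2, a mitochondrial protein induced in hypoxia, at chr12:57628908-57629054. It held 5 cores, lay 1564 bp from the nearest protein-coding transcript start, that of SHMT2, and was called in none of the other 3 lines. At the start of NDUFA4L2 itself the peak was a separate one, of 10.9, centred 126 bp from that start. PPP1R3C, which targets protein phosphatase 1 to glycogen, had a peak of 122.7 at -245 bp from its start that was also called in A549. PDK1, the kinase that switches off pyruvate dehydrogenase, had a peak of 110.4 at its start. LINC00607 and PFKFB4, the latter a regulator of glycolytic flux, each had a peak of 109.4. The first 2 of these peaks were above the highest hypoxia signal of the shared class, 118.7, and the other 3 were below it.

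The rest of the 10 were weaker by small steps. ALDOA, the aldolase of glycolysis, had a peak of 99.1. ADSS1, an enzyme of purine nucleotide synthesis, had a peak of 98.5 that was called in no other line. A peak of 97.7 covered the start of RRP12 with its centre at -145 bp from the start of PGAM1, the glycolytic mutase, and cannot be given to one of them. BNIP3, a mitophagy receptor, had 96.0 with 6 cores. The last, at 94.6, lay between genes and 9925 bp from the nearest protein-coding transcript start, that of MYL4. Each of these 10 peaks held at least 1 core, and in 9 of them the nearest core read ACGTG.

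Every one of the 45 shared loci had more normalized tags in hypoxia than in normoxia. The interval of the ratio lay above 1 at 37 of them, which is 82.2% of the loci compared, and at 31 when tags were divided by peak width, where 43 of the 45 ratios stayed above 1. The median ratio was 3.12 (order-statistic interval of the median 2.29 to 4.94), a log2 ratio of 1.64, and ratios ran from 1.14 to 27.1. That interval describes the spread over loci, which are not replicates of a condition. At 20 loci the ratio was 4 or more, and at 11 it was under 2.

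ENO1, the enolase of glycolysis, had 96.4 in hypoxia and 3.57 in normoxia, a ratio of 27.1 (17.1 to 45.3). Its 2 peaks were displaced and overlapped by 59 bp, so this ratio does not compare the same window. DENND1A, an endocytic regulator, had 75 and 3.57, a ratio of 21.04 (13.3 to 35.3). SLC16A3 had 118.7 and 6.38, a ratio of 18.6 (13.2 to 27.1). All 3 were among the 5 highest shared loci in hypoxia, while in normoxia ENO1 and DENND1A were at the median of the class and SLC16A3 was above its upper quartile of 5.63. The FAM174B locus was different: it had the highest normoxia signal of any H460 peak, 24.4, beside 91.2 in hypoxia, a ratio of 3.74 (3.07 to 4.58).

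Other shared loci with a high normoxia signal were the noncoding locus near PDLIM1 with 60.5 in hypoxia and 13.9 in normoxia, PPM1H with 67.3 and 13.7, and ANKRD37, a gene induced in hypoxia, with 63.1 and 13.5. Their ratios were 4.35 (3.37 to 5.69), 4.92 (3.81 to 6.42) and 4.67 (3.60 to 6.12). The CYP1B1 intron had 79.3 and 8.07, PNRC1 had 54.6 and 5.63, and a locus at -21080 bp from the start of PRELID3B had 55.2 and 3.57. KDM3A, a histone H3 lysine 9 demethylase, had 50.5 and 5.07, and BHLHE40, a transcriptional repressor, had 42.1 and 3.19. At the low end, NCAM1 had 5.05 and 3, a ratio of 1.68 whose interval (0.864 to 3.38) included 1. FTL, the ferritin light chain, had 7.68 and 4.32, a ratio of 1.78 (1.03 to 3.13).

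**Figure D2:**
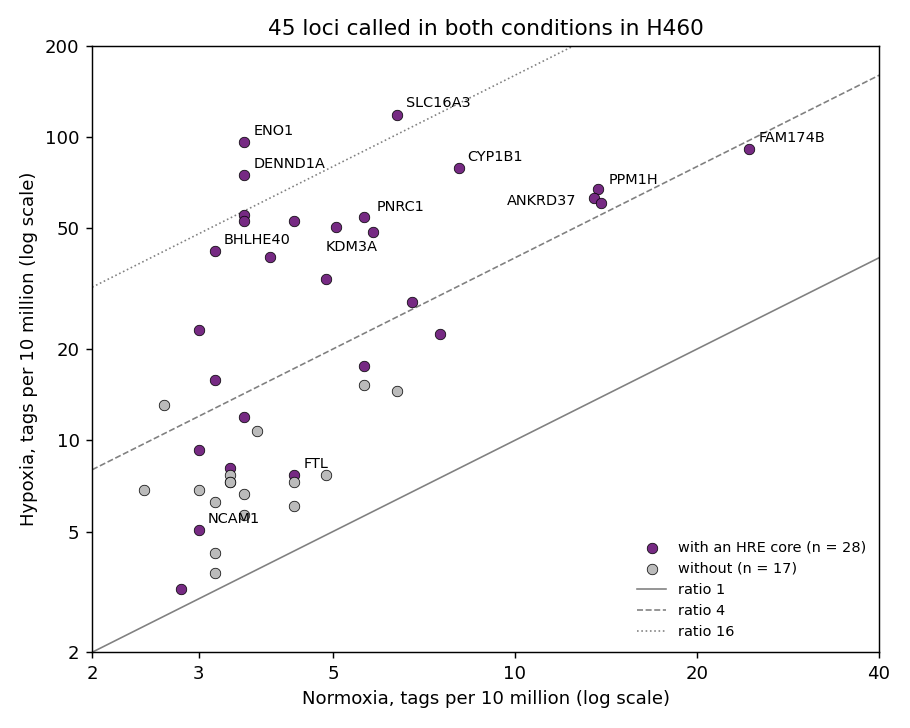
Normalized Tag Count in hypoxia (vertical axis) against normoxia (horizontal axis, both in tags per 10 M on log scales) at the 45 loci called in both conditions, coloured by whether the 200 bp at the centre hold an HRE core; lines mark ratios of 1, 4 and 16. All points lie above the line of equal signal, and the 17 loci without a core lie at or below 15.2 in hypoxia.

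Shared loci with and without an HRE core differed in ratio. The 28 loci with a core had a median ratio of 5.95 (range 1.15 to 27.1), and the 17 without one had 2.16 (1.14 to 5.00). The 12 loci that were also called in hypoxia in all 3 other lines had a median ratio of 11.2 (3.74 to 27.1), and all 12 held a core. The 24 called in no other hypoxia list had a median ratio of 2.28 (1.14 to 15.5), and 12 of them held a core. Hypoxia signal differed as well, with a median of 53.8 at those 12 loci and 7.68 at these 24. No locus without a core was above 15.2 in hypoxia. The normoxia peak had 20 or fewer tags at 24 of the 45 loci. Differences in ratio were not separated from differences in hypoxia signal. In normoxia, 10 of the 45 loci were also called in A549, 4 in HCT116 and 4 in RKO.

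The boundary of the shared class was set by few bases at some loci. The smallest overlaps were 8 bp at FTL, where the hypoxia peak began near the end of the normoxia peak, and 15 bp near SEMA3C. At ENO1 the overlap was 59 bp. A required overlap of at least 50% of the shorter peak kept 38 loci, and ENO1 was not among them. On the other side of the rule, 3 normoxia-only peaks ended within 100 bp of a hypoxia peak and 11 within 1000 bp, of 1082. The closest gap was 53 bp.

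One of the strongest normoxia-only peaks was such a neighbour. It lay 3276 bp downstream of the start of DDIT4, an inhibitor of mTORC1, at chr10:74036895-74037013 with a signal of 10.3 (7.77 to 13.4). A hypoxia peak of 42.1 lay 117 bp away. Per the header, hypoxia peaks had to be 294 bp apart, and 5 normoxia-only peaks had their centre nearer than that to a hypoxia centre. At its start DDIT4 had a hypoxia-only peak of 28.5. The strongest normoxia-only peak, 10.9 (8.26 to 14.1), lay 2613 bp downstream of the start of CXCL1, a neutrophil chemokine, with no core, and its nearest hypoxia peak was 126692 bp away. The input had 1 tag at the CXCL1 peak and 2 at the DDIT4 peak. The remaining peaks of this class were at or below 5.44. At a gene start, the strongest was at CD68, a lysosomal protein of macrophages, with 4.69.

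The classes differed in position. A gene start is the outermost 5′ end of a protein-coding or lncRNA gene. Of the hypoxia-only loci, 49.2% (47.7 to 50.8) lay within 2500 bp of a gene start and 34.4% within 500 bp. Of the shared loci, 51.1% (37.0 to 65.0) and 22.2% did so. Of the normoxia-only loci, 7.39% (5.98 to 9.11) and 2.03% did so, and 37.6% lay over 50 kb from any start, against 13.4% of the hypoxia-only loci. UTRs held 15.0% of the hypoxia-only and 2.68% of the normoxia-only peaks. Introns held 42.1% and 61.3%. The base composition also differed between the classes. The median GC content of the 200 bp at the centre was 58% for hypoxia only, 52.5% for shared and 36% for normoxia only. At 2000 bp to either side it was 45%, 43% and 39.5%.

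The HRE core was present in the 200 bp at the centre of 77.1% of the hypoxia-only peaks (75.7 to 78.4), 62.2% of the shared loci (47.6 to 74.9) and 13.03% of the normoxia-only peaks (11.2 to 15.2). Both strands were searched, and a core on one strand can overlap one on the other. In windows of the same length 2000 bp away, the shares were 24.2%, 24.4% and 16.04%, and at all 38865 gene starts the share was 36.6%. An altered core of equal GC content, ACGAG or GCGAG, was found in 41.3%, 26.7% and 7.86% of the centres and in 18.0%, 20% and 11.9% of the flanks. The centres of hypoxia-only peaks thus exceeded their flanks for both, by more for the HRE core. The longer TACGTG was found in 21.5% of hypoxia-only and 31.1% of shared centres, against 2.02% and 3.33% of their flanks. In the normoxia-only class it was found in 2.68% of the centres and 1.52% of the flanks.

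In the hypoxia-only class the core also lay near the middle of the peak. A core was found from -10 to -1 bp in 14.8% of these peaks, and from -100 to -91 bp in 2.04%. Among the hypoxia-only peaks that held one, the nearest core was within 25 bp of the centre in 67.7% (66.0 to 69.4). The share was 50% (32.6 to 67.4) in the shared class and 26.95% (20.3 to 34.8) in the normoxia-only class. Signal rose with the number of cores in the hypoxia-only class. Its median was 4.85 in the 879 peaks without a core, 6.67 with 1, 7.48 with 2, 9.10 with 3 and 10.5 with 4 or more. The middle ranges of these groups overlapped.

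**Figure D3:**
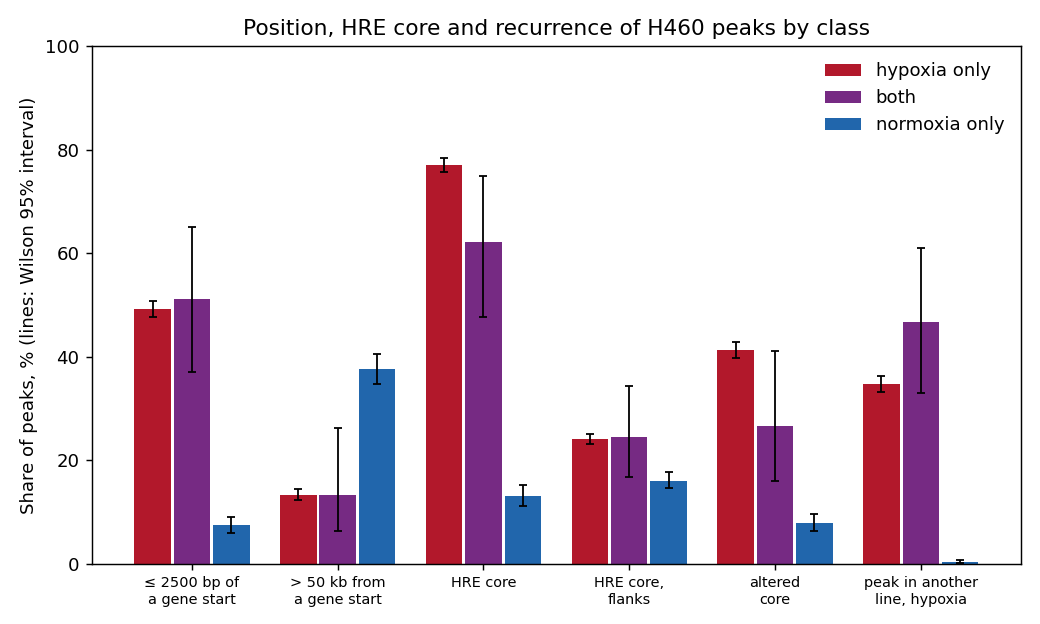
Share of peaks in each class (percent, bars) near or far from a gene start, with an HRE core at the centre or in the flanks, with an altered core of equal GC content at the centre, and with a hypoxia peak of HCT116, RKO or A549 at the same place; lines are Wilson 95% intervals. The normoxia-only bars are lowest in each group but that of peaks over 50 kb from a gene start.

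Hypoxia-only peaks within and beyond 2500 bp of a gene start differed in sequence. The HRE core was held by 85.6% (83.9 to 87.1) of the 1887 proximal and 68.8% (66.7 to 70.8) of the 1945 distal peaks. The reverse was seen for TGANTCA, the site of AP-1, the dimer of FOS and JUN proteins. It was held by 21.2% of the distal peaks (19.4 to 23.1; flanks 6.84%) and by 5.14% of the proximal peaks (4.23 to 6.23; flanks 5.48%). Distal peaks with an HRE core held TGANTCA in 21.2% and those without one in 21.1%, and 24.6% of the distal peaks held neither. Median signal was 4.04 in those with neither and 7.08 in the distal peaks with an HRE core. In whole hypoxia lists, TGANTCA was held by 21.1% of the distal peaks of H460 (19.4 to 23.01), 20.0% of those of A549 (18.8 to 21.3), 13.4% of those of HCT116 (12.1 to 15.0) and 8.81% of those of RKO (8.18 to 9.49). In both lung lines the share was thus above that of both colon lines. These intervals cover counting error within a list, and those of HCT116 and RKO did not overlap either. A difference between tissues cannot be told apart here from a difference between lines. The lists also differed in the fold over input that was required, 14 in H460, 13 in A549, 7 in HCT116 and 6 in RKO, and the part of this in the difference was not tested. In H460 normoxia, 6.54% of the distal peaks held it, beside 6.44% of their flanks.

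Of the hypoxia-only loci, 34.8% (33.3 to 36.3) overlapped a hypoxia peak of HCT116, RKO or A549. The share was 46.7% (32.9 to 60.9) for the shared loci and 0.277% (0.0943 to 0.812), or 3 peaks, for the normoxia-only loci. Recurrence moved with signal: 20.1% of the hypoxia-only peaks under 10 recurred, 64.8% of those from 10 to 50, and 59 of the 62 at 50 or more. It also moved with the core, at 41.1% of hypoxia-only peaks with a core and 13.3% without, and with position, at 46.2% of proximal and 23.7% of distal peaks. In the normoxia lists of the other lines, 2.95% of the hypoxia-only and 28.9% of the shared loci had a peak. Among peaks of 16 to 25 tags, a range in which tag numbers and input coverage of the classes were not matched further, 61.0% of hypoxia-only and 13.6% of normoxia-only peaks held a core, and 12.7% and 0.252% recurred.

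Genes were counted as bound where a peak lay within 2500 bp of the outermost start. In hypoxia this held for 1846 of 20136 protein-coding genes (9.17%), and in normoxia for 68 (0.338%). Of 113 genes in 13 lists of hypoxia biology, 54 (47.8%) had a hypoxia peak and 4 had a normoxia peak. These lists hold many textbook HIF targets and were chosen with earlier results known, so their counts are a description. In 20 ribosomal protein genes, listed for comparison, 3 had a hypoxia peak (15%), all at or below 5.86.

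Glycolytic enzymes had a hypoxia peak at 12 of 18 genes. GPI, the isomerase that follows hexokinase, had 83.9 with 7 cores, at a start it shares with a noncoding gene. LDHA, which makes lactate, had 58.6, GAPDH had 42.5 with a second peak of 26.7, and HK2, the inducible hexokinase, had 39.8. The lowest of the 12 was ENO2 at 18.0. Of the 6 without a peak at the outermost start, PFKFB4 had its 109.4 peak 4729 bp downstream and PFKP had 18.6 in an intron. This PFKFB4 peak lay at -269 bp from the nearest protein-coding transcript start, one of PFKFB4 itself. PGK1 had no peak within 50 kb of its outermost start, although its gene body held one of 53.0. When every transcript start was used, HK1, PFKFB3, PFKFB4, PFKP and PGK1 were also bound.

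Glycogen genes were bound at 7 of 8, from 122.7 at PPP1R3C to 3.03 at PYGB, the brain form of glycogen phosphorylase. GBE1, the branching enzyme, had 48.9 and 35.2. PYGL, the liver phosphorylase, had 30.5 and was called in no other line. GYS1, the synthase, had no peak at its start. Of the lactate and glucose transporters, SLC2A1 had 24.5 and the chaperone BSG 7.08 at the start. By the outermost start, the peaks of SLC16A3 (118.7, in both conditions) and SLC2A3 (47.1) lay inside the genes. That of SLC16A3 was at -1121 bp from the nearest protein-coding transcript start, one of SLC16A3 itself. When every transcript start was used, SLC16A1, SLC16A3 and SLC2A3 were also bound.

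Of the oxygen sensing genes, 4 of 10 had a peak at the start. EGLN1, the main prolyl hydroxylase, had 62.7, and CITED2, which competes with HIF1A for its coactivator, had 25.3. HIF1AN, the asparaginyl hydroxylase, had 20.8 at a start close to that of NDUFB8. HIF1A itself had no peak within 50 kb of its start, and the nearest, of 53.4, lay 55669 bp downstream. EGLN3 had 71.8 in an intron but none near its outermost start. Among demethylases, which use oxygen as a substrate, 7 of 12 had a peak. KDM3A led with 50.5, followed by KDM4B with 44.9 and KDM6B with 33.4.

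In the next 7 lists, 1 to 4 genes had a peak at the start. Mitochondrial genes had 4 of 9, with LONP1, a mitochondrial protease, at 39.4 beside PDK1. The mitophagy receptors BNIP3 (96.0) and BNIP3L (86.7) were the 2 of 5 in their list. In collagen maturation 3 of 10 were bound, P4HA1 at 56.4, P4HB at 38.6 and P4HA2 at 6.67. Of the secreted factors 3 of 8 were bound, and STC2, a stanniocalcin, had 52.8 whereas VEGFA had 6.47. Of the pH genes, CA9, a carbonic anhydrase, had 23.7 at its start, inside an annotated UTR of ARHGEF39, and CA12 had 3.44. For iron, TFRC, the transferrin receptor, had 24.1 and FTL 8.29. Of 9 genes of mTORC1 control, DDIT4 was the 1 with a peak.

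Regulators of the bHLH and forkhead families had a peak at 5 of 8 genes. FOXO3, a forkhead factor, had 4 separate hypoxia peaks at its start, of 9.50, 8.09, 7.28 and 4.04, the most of any protein-coding gene. Only SPRED1, an inhibitor of RAS signalling, also had 3 or more, of 16.8, 8.29 and 6.87, and 97 genes had at least 2. MAX had 19.8, MXI1 10.1 and BHLHE41 8.29. The 4 listed genes with a normoxia peak were ENO1, KDM3A, BHLHE40 and FTL, all of which also had one in hypoxia.

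**Figure D4:**
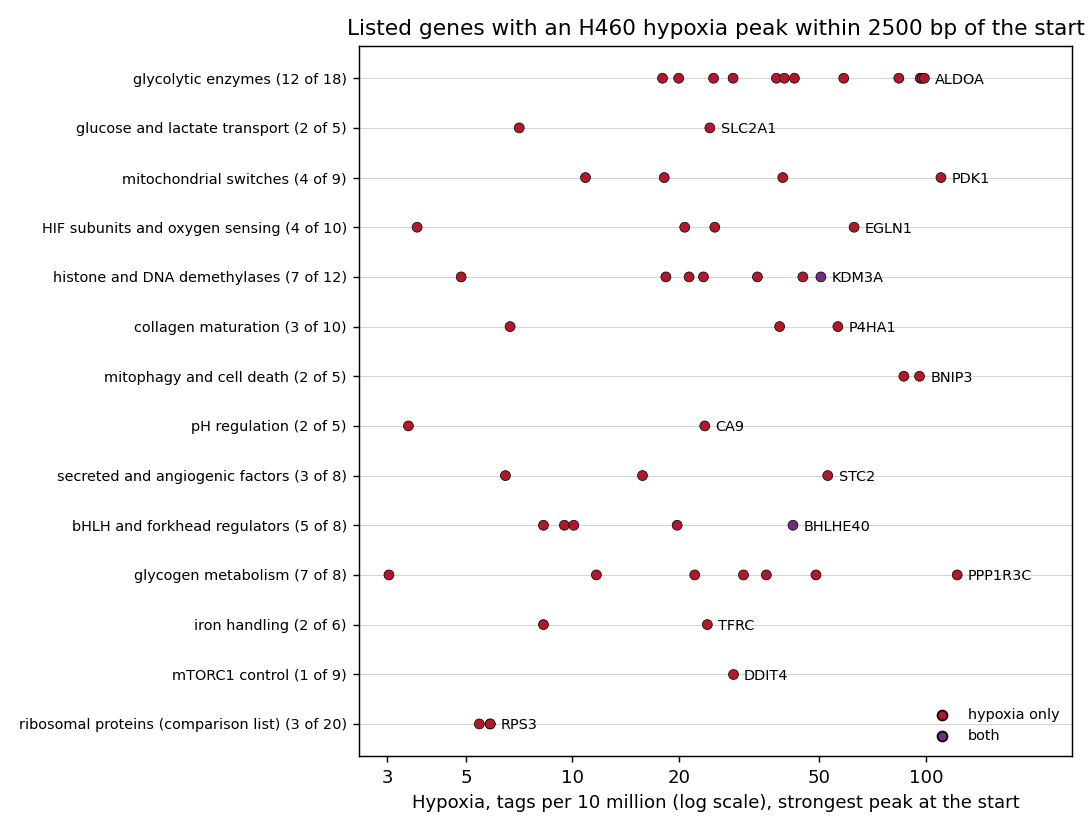
Normalized Tag Count in hypoxia (horizontal axis, tags per 10 M, log scale) of the strongest peak within 2500 bp of the start, for each bound gene of the 13 hypoxia lists and the ribosomal comparison list; the number bound and the list size follow each name, the gene with the highest value is named, and purple points are peaks also called in normoxia. The ribosomal genes sit at or below 5.86, and 8 lists have a gene at or above 50.

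Normoxia-only peaks were unevenly spread over the chromosomes. The long arm of chromosome 1 held 204 of them (18.9%), against 5.17% of the hypoxia-only peaks, and the long arm of chromosome 5 held 115 (10.6%), against 4.49%. Per Mb of known sequence, 1q had 1.95 normoxia-only and 1.89 hypoxia-only peaks, and 5q had 0.876 and 1.31. The short arm of chromosome 19, rich in genes, had 106 hypoxia-only peaks and 1 normoxia-only peak. The mean number of input tags at hypoxia peaks, which counts genomic DNA, was 1.12 on 1q and 0.861 on 5q, against 0.885 over all hypoxia peaks. Over the arms this mean ran from 0.462 on 10p to 1.29 on 17p, which had 0.408 normoxia-only peaks per Mb. The part of DNA copy number in the spread of normoxia-only peaks was not tested.

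**Figure D5:**
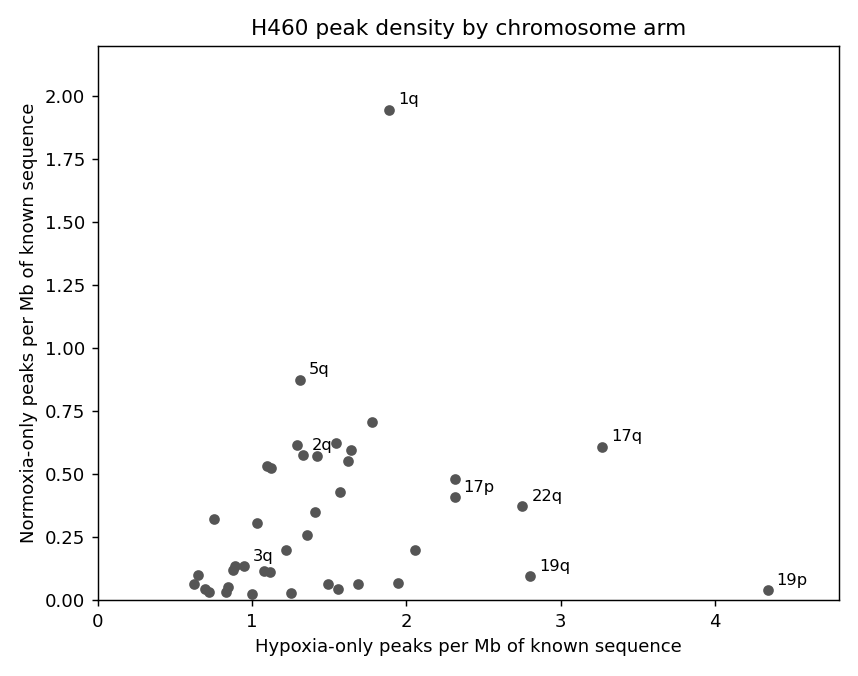
Normoxia-only peaks (vertical axis) against hypoxia-only peaks (horizontal axis) per Mb of known sequence, 1 point for each chromosome arm of H460 with over 5 Mb of known sequence. The long arm of chromosome 1 stands at 1.95 normoxia-only peaks per Mb and that of chromosome 5 at 0.876, above the other arms.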

How the data were processed

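HIF1A ChIP-seq peak lists of H460 in hypoxia and normoxia were analysed, with the lists of HCT116, RKO and A549 for comparison. The authors aligned reads to GRCh37 (hg19) with Bowtie2 2.2.9, kept reads with mapping quality over 10, marked duplicates, merged replicates 1 and 2 and called peaks with HOMER 4.3 against the H460 input, with a fold of 14 over input, a fold of 3 over the surrounding 10000 bp and a false discovery rate of 0.001. Per the file headers, the deposited signal is the Normalized Tag Count, scaled to 10 M tags, and the deposited fold ratios compare a peak with the input and with its surroundings. A peak without input tags carries 0.5 in that column. The deposited p-value columns were not used. Scaling removes depth differences but not those of immunoprecipitation efficiency or peak width, and the wider hypoxia peaks collect more tags.

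Tags were recovered as the signal times the header total. Classes used an overlap of at least 1 bp. Ratios carry exact conditional binomial 95% intervals against the library totals, shares carry Wilson intervals, and the median ratio a binomial order-statistic interval. With 1 merged list per condition no p-value was computed. Gene starts came from GENCODE release 44 mapped to GRCh37, and every peak lay within its chromosome. Each chromosome was split into arms at its largest gap of unknown sequence. Overlap, motif and interval functions were tested on simulated data. Python 3.11.15, pandas 2.3.3, scipy 1.17.1 and pysam 0.24.0 were used.

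The peaks named are the 10 strongest of the hypoxia-only and shared classes, the 5 strongest of the normoxia-only class, and members of the gene lists. Others (KDM3A, BHLHE40, FTL, NCAM1, SEMA3C, CD68, SPRED1, the peaks of EGLN3 and PGK1), the altered core, TGANTCA and the arms were chosen after their values were seen. Members and lists were chosen with earlier results of these data known. The sequences of some named peaks are not reported here.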

Additional observations from a re-analysis of the deposited data

Results flagged for a closer look

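H460 stood apart from the other 3 lines in input coverage. No input tag was present at 98.8% of its normoxia peaks, against 20.7% to 26.5% in the others, and at 45.6% of its hypoxia peaks, against 25.9% to 27.8%. The required fold over input was 14 in H460, 13 in A549, 7 in HCT116 and 6 in RKO. Headers of the hypoxia lists imply 29.4 M input tags for H460, 41.6 M for A549, 34.2 M for HCT116 and 37.7 M for RKO. In H460 normoxia a peak over 1 input tag needed 26 tags, and 98.2% of the peaks had fewer. The part of these settings in the input coverage was not tested. A549, not H460, stood apart in the share of hypoxia peaks also called in normoxia, at 3.25% against 0.926% to 1.16%. Of 10 measures compared over the 4 lines, these 3 were flagged, each because 1 line lay far from the other 3 for the range of the 4 values, which chance gives in about 1 in 20 groups.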

How the results depend on the processing

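No paired analysis was possible because the authors pooled the replicates of each condition for their peak calls, and for the same reason no replicate could be left out. Of 56 alternatives, 28 kept their value within its interval or spread, 28 moved and 0 reversed, and in each alternative run on gene starts, cores or recurrence the normoxia-only share was below the hypoxia-only share. A fold over input of at least 20 left 20 shared loci, 11.1% of normoxia and 0.739% of hypoxia peaks, of which 70% lay at gene starts and 80% held a core. A local fold of at least 6 left 25, 5.98% and 0.867%. Shares at gene starts (hypoxia only, normoxia only) were 42.2% and 3.70% within 1000 bp, 54.5% and 14.1% within 5000 bp, and 59.97% and 15.1% with every transcript start, and 33.3% of shared loci lay within 1000 bp. Core shares (hypoxia only, shared, normoxia only) were 67.3%, 46.7% and 6.47% in 100 bp and 82.9%, 80% and 24.4% in 400 bp. Recurrence of hypoxia-only and normoxia-only loci was 33.1% and 0.0924% with an overlap of 50% of the shorter peak, and 24.8% and 0.0924% with a fold of 14 in every list. At 16 to 25 tags, a range chosen after seeing the data that held too few shared loci for a value, the hypoxia-only shares were 42.0% at gene starts, 61.0% with a core and 12.7% recurrent. With every transcript start, 65 of the 113 listed genes were bound, PGK1, EGLN3 and SLC16A3 among those added, beside 11.3% of all protein-coding genes. Of the 45 shared loci, 37 had a ratio whose interval lay above 1, and at the others a difference was not detectable at this depth.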
